A study of Mus musculus with 22 samples.

Results

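The H3K4me3 mark was followed at 10 genes that encode NF-kB subunits, signalling proteins upstream of them and genes that NF-kB signalling induces: Nfkb1, Nfkb2, Rela, Map3k8, Ripk2, Tank, Birc2, Birc3, Tnfaip2 and Sod2. Members were all regions annotated to these gene symbols in the 4 deposited tables, in any position class, which gave 19 of the 26201 listed regions. All 10 genes had at least 1 region. Rela and Tank had 3 regions each, Nfkb2, Ripk2, Birc3, Tnfaip2 and Sod2 had 2 each, and Nfkb1, Map3k8 and Birc2 had 1 each. The cells were synovial fibroblasts, which line the joint, cultured to passage 4 to 5 from mice of strain CBA x C57BL/6J. Tg197 mice express human TNF from a transgene and become arthritic. Their cells were set against wild-type (WT) cells from mice aged 3, 8 and 11 weeks, ages taken in the design as the early, the established and the late stage of disease. TNF-treated WT cells of 8 weeks were set against untreated WT cells of that age, and the dose and duration of TNF are not given in the sources used here. Each of the 7 groups had 3 H3K4me3 ChIP-seq libraries. Whether these came from separate animals is not given either, so the tests measure the spread between libraries only.

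NF-kB is a family of dimeric transcription factors that rests in the cytoplasm, held there by inhibitors and by the precursor forms of its own subunits. Binding of TNF to its receptor assembles a complex in which the ubiquitin ligases cIAP1 (Birc2) and cIAP2 (Birc3) build chains that recruit the kinases which free NF-kB. In synovial fibroblasts this pathway drives production of chemokines, proteases and adhesion molecules in arthritis, and several genes of the pathway are themselves transcribed under NF-kB. H3K4me3 is a histone mark concentrated around the start sites of active genes, often strongest just downstream of the start.

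The 250 bases before the annotated start were available from RefSeq (build GRCm38.p6) for 7 of the 10 genes. They were searched on both strands for the kB consensus, the 10-base sequence that NF-kB dimers bind. At least 1 match was found for 4 genes (Nfkb2, Tank, Tnfaip2 and Sod2) and none for 3 (Rela, Birc2 and Birc3). Over all promoters of the same length in that table, 7.25% of 32851 entries held a match, and 8.23% of 27025 genes had an entry with one. A match describes the letters only and does not show binding. The sequences below are shown for the 4 genes with a match, and for Birc3 and Rela, which hold none and moved in opposite directions. Every member but Rela carried more of the mark in some comparison, including Birc2 and Birc3 without a match. Tnfaip2, which has a match, also carried less in 1 comparison. Whether a match goes with a change in the mark was not tested. RefSeq gives 3 entries for Nfkb2, and the 1 with most matches is shown, while the others hold 1 match each, 236 and 225 bases before their starts. The entries were not tied to the start of Nfkb2 used in the tables. Of the 4 entries for Tank, all with 1 match, the pair shown has its starts 14511 bp apart, the distance between the 2 Tank starts in the tables. Capitals mark the kB matches, and each sequence reads 5′ to 3′ toward the start.
Nfkb2, chr19:46304487-46304736, plus strand: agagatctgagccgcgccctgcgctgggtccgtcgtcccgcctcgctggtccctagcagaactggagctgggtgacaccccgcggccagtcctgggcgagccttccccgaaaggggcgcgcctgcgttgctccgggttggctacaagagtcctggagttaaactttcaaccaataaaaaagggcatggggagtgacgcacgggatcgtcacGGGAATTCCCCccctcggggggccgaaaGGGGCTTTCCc
Tank, upstream start, chr2:61578336-61578585, plus strand: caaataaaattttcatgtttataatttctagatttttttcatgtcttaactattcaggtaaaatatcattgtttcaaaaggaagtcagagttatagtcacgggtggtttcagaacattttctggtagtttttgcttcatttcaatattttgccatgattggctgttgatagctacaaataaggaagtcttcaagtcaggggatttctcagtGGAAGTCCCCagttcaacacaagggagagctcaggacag
Tank, downstream start, chr2:61592847-61593096, plus strand: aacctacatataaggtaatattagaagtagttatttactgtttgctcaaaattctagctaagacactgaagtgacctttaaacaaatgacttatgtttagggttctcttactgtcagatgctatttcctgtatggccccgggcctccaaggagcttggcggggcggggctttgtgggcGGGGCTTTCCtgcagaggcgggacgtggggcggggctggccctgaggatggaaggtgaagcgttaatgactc
Sod2, chr17:13007589-13007838, plus strand: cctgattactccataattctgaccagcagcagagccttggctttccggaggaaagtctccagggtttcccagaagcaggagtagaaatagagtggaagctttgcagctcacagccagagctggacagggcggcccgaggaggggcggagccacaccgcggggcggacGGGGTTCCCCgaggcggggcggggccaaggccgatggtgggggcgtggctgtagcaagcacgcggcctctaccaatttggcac
Tnfaip2, chr12:111442411-111442660, plus strand: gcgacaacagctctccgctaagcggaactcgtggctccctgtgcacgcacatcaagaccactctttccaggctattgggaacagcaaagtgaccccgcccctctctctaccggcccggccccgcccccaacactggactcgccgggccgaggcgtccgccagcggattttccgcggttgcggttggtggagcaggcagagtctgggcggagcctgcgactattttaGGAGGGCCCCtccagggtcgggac
Birc3, chr9:7873171-7873420, minus strand: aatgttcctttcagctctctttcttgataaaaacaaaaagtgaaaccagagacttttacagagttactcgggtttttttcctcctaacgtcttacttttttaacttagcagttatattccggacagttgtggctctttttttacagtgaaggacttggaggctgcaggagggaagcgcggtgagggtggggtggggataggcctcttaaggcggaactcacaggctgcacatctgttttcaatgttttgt
Rela, chr19:5637291-5637540, plus strand: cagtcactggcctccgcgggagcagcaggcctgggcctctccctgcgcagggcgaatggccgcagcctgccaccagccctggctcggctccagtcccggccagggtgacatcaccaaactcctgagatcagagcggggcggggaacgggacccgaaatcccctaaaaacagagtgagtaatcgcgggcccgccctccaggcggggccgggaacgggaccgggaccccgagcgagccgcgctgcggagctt
In Nfkb2 the first block of capitals holds 2 overlapping matches that start 39 and 38 bases before the start, and a further match starts 11 bases before it. The match of Tank starts 39 bases before the upstream start and 72 bases before the downstream one. That of Sod2 starts 83 bases before its start and that of Tnfaip2 24 bases before. All other positions below are on mm9, the build of the deposited tables.

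Values are the authors' normalized reads in a region, with the 3 libraries of a group called a, b and c in the order of a cell, which carries no replicate numbers. Log2 changes and standard errors are from limma on log2 of the normalized reads plus 0.5, adjusted over every listed region of a table. "Rose" and "fell" mark a limma adjusted p under 0.05, and "higher" and "lower" mark the authors' own adjusted p under 0.05. Only regions whose best window had an authors' p no higher than 0.0001 are in the tables. A listed region had thus been selected on the same libraries, and for an unlisted gene no values are available in that comparison. Listed regions held from 321448 to 2780941 reads per library, and the member regions held from 55 to 2124 reads in a library. Scaling each library to its median over the listed regions moved all log2 changes by 0.67 at 3 weeks, 0.34 at 11 weeks and 0.51 with TNF, and scaling to those listed regions that lie within 1 kb of a start site moved them by -0.33, -0.15 and -0.10. Of 10 synovial fibroblast markers 7 had a listed promoter region in some table, as did 4 of 5 markers of cartilage, bone and fat, 3 of 8 of leukocytes, 3 of 5 of endothelium, 2 of 4 of epithelium and nerve sheath, and 1 of 3 of muscle. The tables leave out unchanged promoters, so a marker that is not listed cannot be called absent.

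Under the authors' scaling, promoter regions of Nfkb2, Tank and Birc2 rose in Tg197 cells at 3 weeks, by 1.39-fold to 1.72-fold. Regions upstream of the starts of Rela and Tnfaip2 fell, to 0.66 of the WT level. None of these 5 calls held under both alternative scalings. The rises were lost with scaling to regions near a start site, and the falls with scaling to the listed regions. At 11 weeks Nfkb1, Ripk2, Tank, Birc3 and Tnfaip2 rose, by 1.27-fold to 1.89-fold, and a gene-body region of Rela fell. TNF-treated WT cells showed rises at Nfkb2, Ripk2, Map3k8, Birc3 and Sod2 of 1.36-fold to 1.83-fold, and a fall at the Rela promoter. No region of any of the 10 genes was listed at 8 weeks in Tg197 cells.

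At 3 weeks the authors' adjusted p called 4 of the 6 member regions higher and 2 lower. It called 99.2% of all listed regions, with 39.7% of promoter regions higher and 58.8% lower. Limma called 3 members risen and 2 fallen, against 93.6% of all listed regions called, 18.7% of promoter regions risen and 58.3% fallen. At 11 weeks the authors' adjusted p called 5 members higher and 1 lower, against 96.8% of all listed regions called, 46.6% of promoter regions higher and 47.3% lower. Limma called the same numbers, 5 risen and 1 fallen, against 97.3% of all listed regions called, 45.3% of promoter regions risen and 46.8% fallen. The fallen member is in a gene body, and of all listed regions at that age the authors called 67% lower and limma called 67.7% fallen. With TNF the authors' adjusted p called 6 of 7 members higher and 1 lower, against 96.9% of all listed regions called, 38.9% of promoter regions higher and 57.1% lower. Limma called 5 risen and 1 fallen, against 59.1% of all listed regions called, 26.1% of promoter regions risen and 26.6% fallen. The 2 groups did not overlap in 5 of 6 member regions at 3 weeks, 6 of 6 at 11 weeks and 6 of 7 with TNF, against 92.6%, 95.9% and 74.2% of all listed regions. Nearly every listed region passes the authors' threshold, and most have separate groups, so the number of members past either says nothing particular about them. The direction is what varied, and 15 of the 19 regions, which count some genes more than once, were higher. The members were chosen with earlier results of these data known, so neither the directions nor the medians that follow test them as a group. The median log2 change over the member regions was 0.44 at 3 weeks, 0.66 at 11 weeks and 0.48 with TNF, beside -0.54, 0.09 and -0.41 over all listed promoter regions. The member median at 11 weeks includes the gene-body region of Rela.

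**Figure D1:**
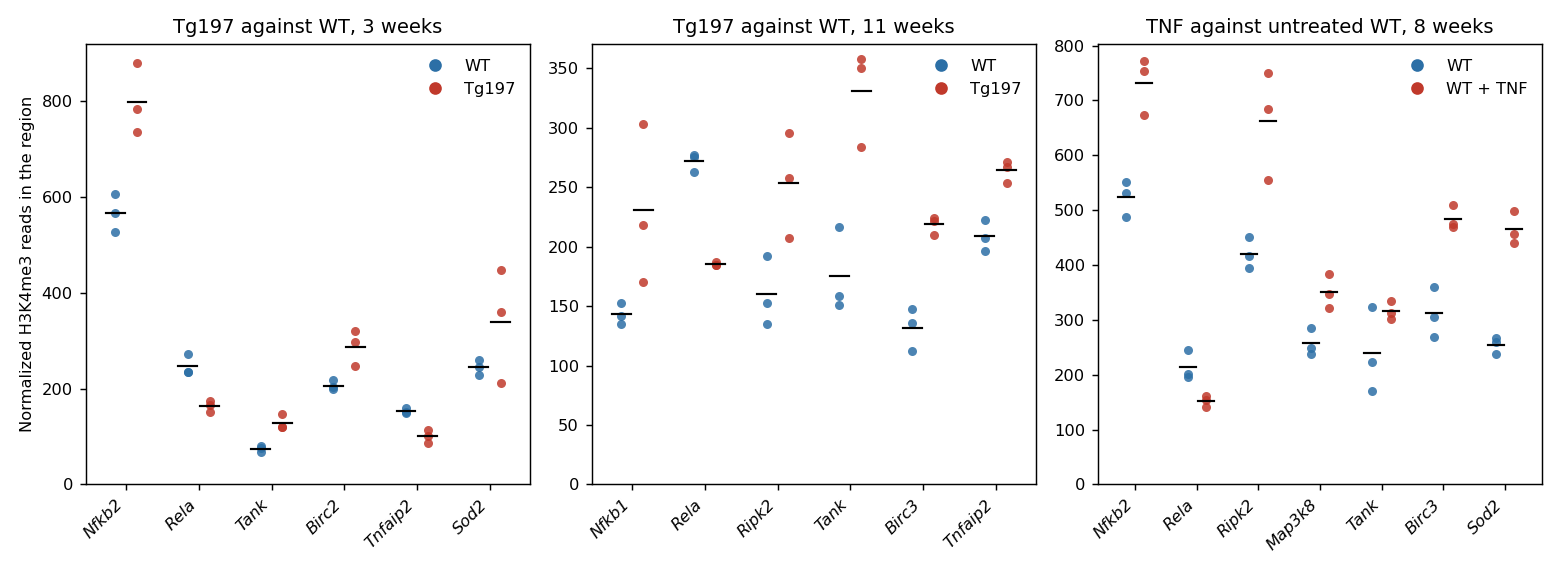
Normalized H3K4me3 reads (vertical axis, linear from 0) in each listed region of the 10 genes, with 1 point per library and a black line at the mean of 3 libraries; blue is WT and red is Tg197 or TNF-treated WT. The red and blue points overlap at Sod2 at 3 weeks and at Tank with TNF and are separate in the other 17 of 19 regions, as in 74.2% to 95.9% of all listed regions of these tables.

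Among the subunit genes, Nfkb2, which encodes the p100 precursor of the p52 subunit, had nearly the same promoter region listed in 2 comparisons. At 3 weeks (chr19:46378501-46381300, from 1606 bp upstream to 1193 bp downstream of the start) the Tg197 libraries held 783, 878 and 735 normalized reads and the WT libraries 527, 607 and 567. The lowest Tg197 library lay above the highest WT library, and the means of 798.6 ± 73.2 and 567.0 ± 39.9 (SD, n = 3 each) gave a log2 change of 0.49 ± 0.18 (limma adjusted p = 0.0226). With TNF (chr19:46378501-46381000) the treated libraries held 673, 771 and 753 and the untreated ones 551, 487 and 531, again without overlap, and the change was 0.48 ± 0.13 (limma adjusted p = 0.046). The 2 regions share 2500 bp, which is 89.3% of the first and 100.0% of the second. In both the best window lay upstream of the annotated start, from 1406 to 407 bp before it at 3 weeks and from 1606 to 607 bp before it with TNF. RefSeq gives several starts for Nfkb2, and the windows were not placed against those. In most of the other higher regions the best window lay wholly downstream of the start. The 3 week call was lost with scaling to regions near a start site (log2 change 0.16, limma adjusted p = 0.408).

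Nfkb1, which encodes the p105 precursor of the p50 subunit, was listed at 11 weeks only. Its region (chr3:135351601-135353000) lies inside the gene, 1510 to 2909 bp downstream of the start. The Tg197 libraries held 218, 303 and 170 normalized reads and the WT libraries 152, 135 and 142. Groups did not overlap, but the Tg197 libraries spread widely, from library b as the highest to library c as the lowest. The log2 change was 0.65 ± 0.17 (limma adjusted p = 0.00482) and ran from 0.43 to 0.85 as single libraries were left out, lowest without Tg197 library b.

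Rela, which encodes p65, the main activating subunit, went the other way in each of its 3 comparisons, though in different places. At 3 weeks the region upstream of its start (chr19:5635501-5637000, from 1988 to 489 bp before it) held 165, 150 and 174 normalized reads in Tg197 and 235, 234 and 272 in WT. Every Tg197 library was below every WT library, with a log2 change of -0.60 ± 0.17 (limma adjusted p = 0.0143). With TNF a region over the start (chr19:5636601-5637600, from 888 bp upstream to 111 bp downstream) held 161, 154 and 140 in treated cells and 245, 195 and 201 in untreated cells, a change of -0.49 ± 0.17 (limma adjusted p = 0.0463). These 2 regions share 400 bp. At 11 weeks the listed region was in the gene body, 4312 to 6211 bp downstream of the start (chr19:5641801-5643700), with 187, 184 and 185 reads in Tg197 against 277, 276 and 263 in WT. The spread there was small (185.6 ± 1.6 against 271.8 ± 7.8), and the log2 change of -0.55 ± 0.10 passed limma (adjusted p = 0.00434).

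The lower values at Rela depended on the scaling and, with TNF, on the measure. With scaling to regions near a start site the log2 changes were -0.93 at 3 weeks, -0.70 at 11 weeks and -0.59 with TNF. Each of these passed limma (adjusted p = 0.00729, 0.00127 and 0.0347). With scaling to the listed regions the log2 changes were 0.07 at 3 weeks and 0.02 with TNF, which ends both calls, and -0.21 at 11 weeks (limma adjusted p = 0.143). The fall at each region was close to the median of its whole table, from which it differed by 0.11 at 3 weeks, 0.05 at 11 weeks and 0.09 with TNF on the log2 scale. In the authors' deposited table the enrichment value at the Rela start, whose reference is not given, was 11.01 in TNF-treated and 7.44 in untreated cells, which is the opposite direction to the reads. At 3 weeks the deposited enrichments at Rela were 5.06 in Tg197 and 5.36 in WT cells, and at 11 weeks 2.31 and 3.23, both in the direction of the reads.

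**Figure D2:**
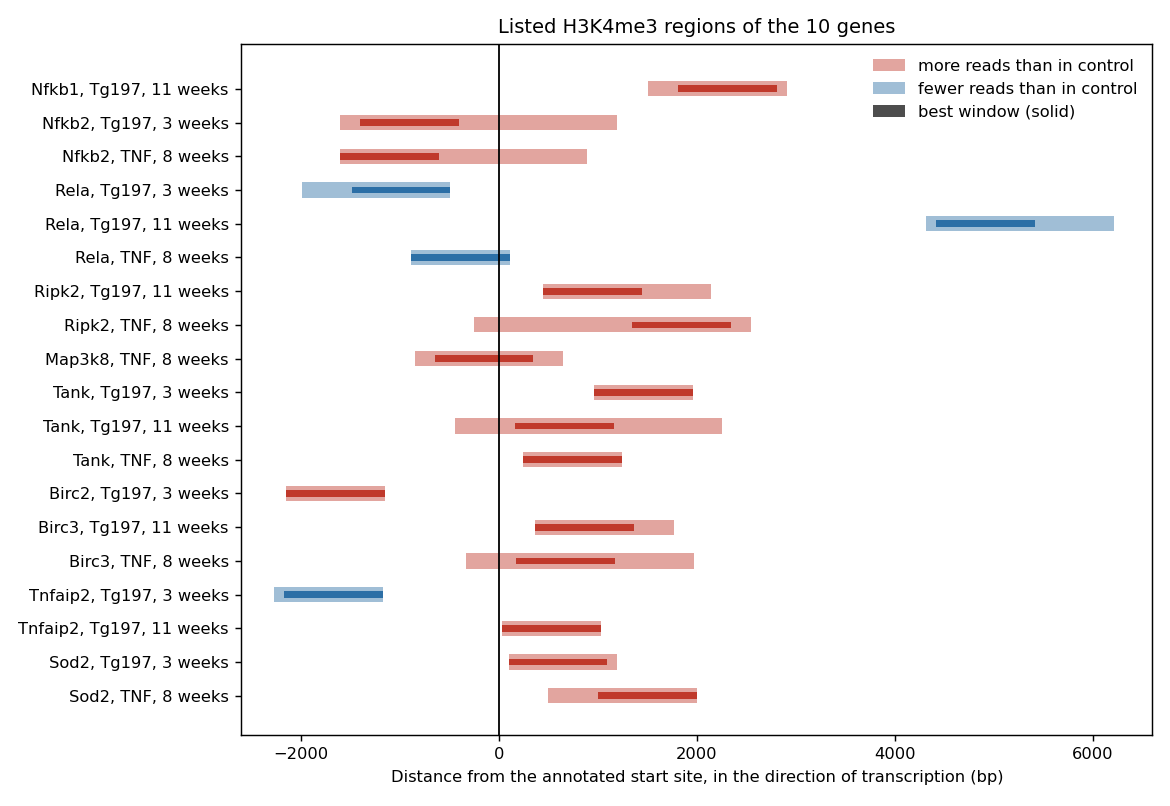
Listed regions of the 10 genes (pale bars) and their best windows (solid bars) by distance from the annotated start site in bp, positive in the direction of transcription; red marks more and blue marks fewer normalized reads than in the control group. Red bars lie mostly to the right of the start and include 11 of the 12 regions centred downstream, while 3 of the 4 blue bars are centred upstream.

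Of the kinases, Ripk2, which relays signals from the NOD receptors to NF-kB, rose at 11 weeks and with TNF. At 11 weeks (chr4:16088501-16090200, 444 to 2143 bp downstream of the start) the Tg197 libraries held 296, 207 and 258 normalized reads and the WT libraries 192, 153 and 135. The lowest Tg197 value was close to the highest WT value, without overlap, and the log2 change was 0.66 ± 0.15 (limma adjusted p = 0.00438). With TNF the listed region was longer (chr4:16088101-16090900) and contained all of the 11 week region. Treated cells held 555, 750 and 685 reads and untreated cells 417, 451 and 395, a 1.58-fold difference and a log2 change of 0.65 ± 0.15 (limma adjusted p = 0.046). The best window of the TNF region had a log2 change of 0.87 in the authors' deposited table and lay 1344 to 2343 bp inside the gene.

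Map3k8, the kinase TPL2 that is bound to p105 and activates the ERK pathway when released, was listed with TNF only. Its region (chr18:4352301-4353800, from 850 bp upstream to 649 bp downstream of the start) held 347, 384 and 321 normalized reads in treated and 249, 285 and 238 in untreated cells. Groups did not overlap, and the log2 change of 0.45 ± 0.13 passed limma (adjusted p = 0.046), the smallest change among the 5 genes that rose with TNF.

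Tank encodes an adaptor that binds TRAF proteins and the kinases TBK1 and IKK-epsilon, and it had the largest fold of the member regions at 3 weeks and at 11 weeks. At 3 weeks (chr2:61417601-61418600, 959 to 1958 bp downstream of the upstream start) Tg197 libraries held 119, 119 and 147 normalized reads and WT libraries 75.6, 80.5 and 67.8. The ratio of means was 1.72 and the log2 change 0.78 ± 0.20 (limma adjusted p = 0.0143), above 99.8% of the listed promoter regions of that table. At 11 weeks a region that contains the first (chr2:61416201-61418900) held 284, 350 and 358 reads in Tg197 and 216, 151 and 158 in WT. The groups were again separate, with a log2 change of 0.93 ± 0.14 (limma adjusted p = 0.00434) that exceeded 99.5% of listed promoter regions. Its best window reached 1.23 on the log2 scale in the authors' deposited table, 159 to 1158 bp downstream of the start. Counts at 3 weeks were low, with 55 to 72 reads in the WT libraries, and the call was lost with scaling to regions near a start site (log2 change 0.44, limma adjusted p = 0.215). The folds are over a low WT level. The deposited WT enrichment, whose reference is not given, was 1.55 at 3 weeks and 1.0 at 11 weeks, the lowest among the member regions of each age.

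With TNF the listed Tank region was at another start site, 14511 bp downstream of the first, and did not overlap the regions listed for Tg197 cells. There (chr2:61431401-61432400, 248 to 1247 bp downstream of that start) treated libraries held 302, 312 and 335 normalized reads and untreated libraries 170, 223 and 324. Untreated library c lay among the treated ones, so the groups overlapped. The log2 change of 0.45 ± 0.22 did not pass limma (adjusted p = 0.0767), and leaving out 1 library moved it between 0.23 without untreated library a (limma adjusted p = 0.234) and 0.70 without untreated library c (limma adjusted p = 0.014). With voom it was 0.21 (adjusted p = 0.388). Around the downstream start untreated cells carried 238.7 ± 78.2 normalized reads per kb. The upstream start had no listed region in the TNF table and the downstream start none in the Tg197 tables, so whether the 2 starts responded differently was not tested.

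Birc2 and Birc3 lie side by side on chromosome 9, on the same strand, with annotated starts 37915 bp apart in the files. The region of Birc2 (chr9:7836401-7837400), listed at 3 weeks only, lay 2146 to 1147 bp upstream of its annotated start. Tg197 libraries held 247, 319 and 296 normalized reads and WT libraries 200, 202 and 217, with a log2 change of 0.47 ± 0.17 (limma adjusted p = 0.0205). Scaling to regions near a start site lowered this to 0.14 (limma adjusted p = 0.555). Birc3, itself a gene induced by NF-kB, was listed at 11 weeks and with TNF. At 11 weeks (chr9:7871401-7872800, 369 to 1768 bp downstream of the start) Tg197 libraries held 210, 224 and 222 reads and WT libraries 136, 147 and 112. Tg197 libraries were tightly grouped and well above WT, and the log2 change was 0.74 ± 0.13 (limma adjusted p = 0.00434).

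With TNF the region of Birc3 (chr9:7871201-7873500) held 469, 475 and 510 normalized reads in treated and 360, 305 and 269 in untreated cells, a log2 change of 0.65 ± 0.14 (limma adjusted p = 0.046). It contained the whole 11 week region. The best window had a log2 change of 0.95 in the authors' deposited table and covered 169 to 1168 bp downstream of the start. In both comparisons the change of Birc3 stood above that of at least 97.6% of listed promoter regions.

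Sod2 encodes the manganese superoxide dismutase of mitochondria, which TNF induces. With TNF it had the largest fold of the member regions, from 259, 237 and 266 normalized reads to 440, 499 and 457 (chr17:13201201-13202700, 497 to 1996 bp downstream of the start). The treated libraries were all above the untreated ones by a wide margin, and the 1.83-fold difference (465.1 ± 30.6 against 254.1 ± 15.1) corresponded to a log2 change of 0.87 ± 0.12 (limma adjusted p = 0.046), above 99.7% of listed promoter regions. At 3 weeks a region nearer the start (chr17:13200801-13201900), which shares 700 bp with the first, held 359, 447 and 210 reads in Tg197 and 246, 260 and 228 in WT. Tg197 library c, the shallowest library of that table, was below all 3 WT libraries. The authors called the region higher, but the log2 change of 0.40 ± 0.24 did not pass limma (adjusted p = 0.122). Without Tg197 library c it was 0.71 (limma adjusted p = 0.00177), and without library b 0.17 (limma adjusted p = 0.415).

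Tnfaip2, a gene first known for its induction by TNF, had opposite directions at 3 and 11 weeks, in regions that do not touch. At 3 weeks the region upstream of the start (chr12:112678601-112679700, from 2270 to 1171 bp before it) held 113, 85.8 and 102 normalized reads in Tg197 and 150, 149 and 159 in WT. It fell with a log2 change of -0.61 ± 0.18 (limma adjusted p = 0.0143), which became 0.05 with scaling to the listed regions. At 11 weeks the region just downstream of the start (chr12:112680901-112681900) held 254, 267 and 271 in Tg197 and 208, 196 and 222 in WT. The groups were separate, and the log2 change of 0.34 ± 0.10 (limma adjusted p = 0.00622) was the smallest rise among the members. It did not pass with scaling to regions near a start site (log2 change 0.19, limma adjusted p = 0.0757). The 2 regions are 1200 bp apart, and the difference between the ages was not tested because the tables were normalized separately.

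**Figure D3:**
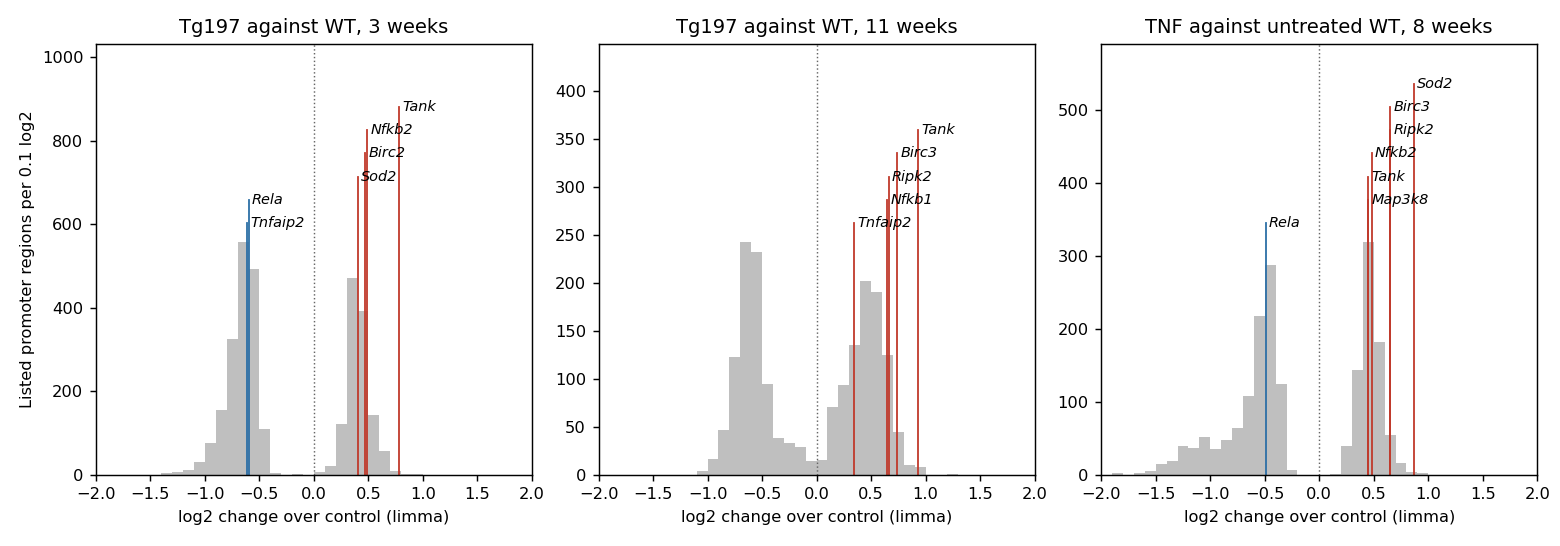
Number of listed promoter regions (grey bars, vertical axis) by limma log2 change in steps of 0.1 (horizontal axis, values beyond 2 in either direction placed in the outermost bars), with coloured lines at the promoter regions of the 10 genes. Tank at 3 and 11 weeks and Sod2 with TNF lie in the right tail, while Rela and Tnfaip2 at 3 weeks lie above 39.8% and 35.9% of the promoter regions of that table.

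The higher member regions were centred downstream of the start site in 2 of 4 cases at 3 weeks, 5 of 5 at 11 weeks and 4 of 6 with TNF. The cases centred upstream at 3 weeks were Nfkb2 and Birc2, for which RefSeq gives starts other than those used here, so their side depends on the annotation. Over all higher promoter regions the share centred downstream was 78.7%, 75.5% and 82.6%. Lower promoter regions were centred downstream in 51.3%, 59.9% and 55.7% of cases. Of the 4 lower member regions, 3 were centred upstream.

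The level of the mark differed between the genes, and is compared here only within a table and per kb of region. In WT cells at 3 weeks it ran from 74.6 ± 6.4 normalized reads per kb at Tank to 222.5 ± 14.8 at Sod2. Sod2, Birc2 (206.2 ± 9.3) and Nfkb2 (202.5 ± 14.2) were neighbours that did not differ beyond their spread, followed by Rela (164.7 ± 14.6) and Tnfaip2 (138.7 ± 5.1). At 11 weeks Tank was again lowest (64.9 ± 13.3), Birc3, Ripk2 and Nfkb1 lay together between 94.0 and 102.2, and Rela (143.1 ± 4.1) and Tnfaip2 (208.7 ± 13.1) were higher. In untreated WT cells of 8 weeks the order ran from Birc3 (135.5 ± 19.9) through Ripk2, Sod2, Map3k8 and Nfkb2 to Rela (213.8 ± 27.5) and the downstream start of Tank. Regions lie at different distances from the start, and the part of position in this order was not tested.

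The TNF libraries b and c were deeper than the untreated ones, with depths of 2.75 and 1.82 relative to the authors' scaling, against 0.553 in TNF library a and 0.544 to 1.23 in untreated cells, and the part of depth in the result was not tested. The 6 members past limma with TNF had adjusted p-values of 0.046 to 0.0463. Leaving out treated library b or c, or untreated library a or b, ended all 6 calls, as it did for every region of that table. Without untreated library c 7 members passed, with 2770 regions called in the whole table against 1823 with all libraries. Without treated library a 5 members and 1757 regions of the table passed, and the fall at Rela did not (log2 change -0.53, limma adjusted p = 0.0595). The log2 changes moved less than the calls, from 0.82 to 0.91 at Sod2, 0.55 to 0.76 at Birc3, 0.43 to 0.54 at Nfkb2 and -0.55 to -0.38 at Rela. At 3 weeks leaving out WT library c ended all 5 calls, as it did for every region of that table. Leaving out WT library a or b left 3, with 8117 and 7955 regions called in the whole table against 12733 with all libraries. At 11 weeks all 6 calls held whichever single library was left out, and 6139 to 6276 of the 6593 regions of that table passed.

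**Figure D4:**
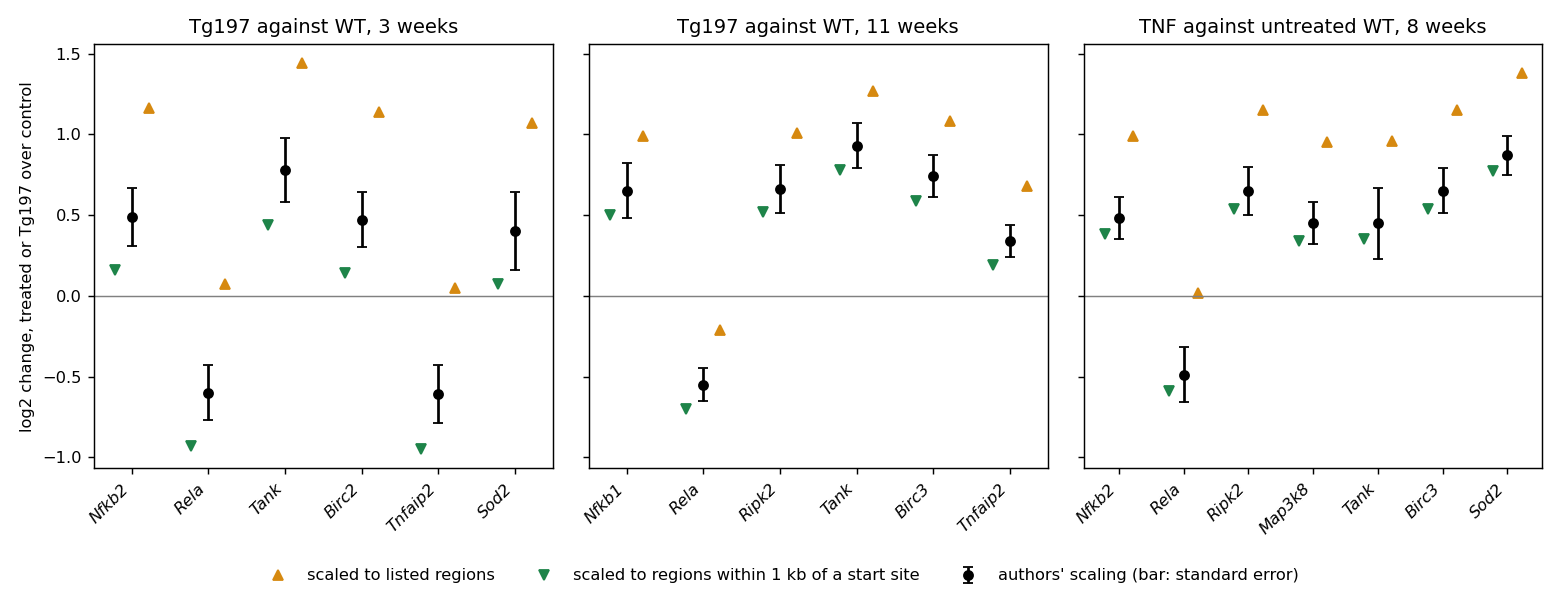
Limma log2 change of each member region (vertical axis) under the authors' scaling (black, bars are standard errors, 3 libraries per group), after scaling by the median of listed regions (orange) and by that of regions within 1 kb of a start site (green). Higher members stay above 0 under all 3 scalings, while Rela at 3 weeks and with TNF and Tnfaip2 at 3 weeks pass from below 0 to 0.02 to 0.07 with the first alternative. The first alternative raises all changes of a comparison alike, so a higher member could not turn with it. With the second, the 3 rises at 3 weeks and that of Tnfaip2 at 11 weeks no longer pass limma.

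In the rest of the pathway, 55 further genes for inhibitors, kinases, adaptors and ubiquitin enzymes were counted by their promoter regions. At 3 weeks 9 were higher (Nfkbia, Nfkbie, Nfkbiz, Tnfaip3, Tnip1, Tnip2, Tnfrsf1b, Rnf31 and Irak4) and 4 lower, and 6 rose and 4 fell by limma. The 4 that fell were the TRAF adaptors Traf2 (62.3 ± 5.6 against 118.3 ± 15.3 normalized reads) and Traf3, the TBK1 adaptor Tbkbp1 and the linear ubiquitin subunit Sharpin. With scaling to the listed regions Traf3 and Tbkbp1 turned to log2 changes of 0.06 and 0.01. At 8 weeks, where the 10 members had no region, 5 of the 55 were higher (Nfkbia, Nfkbie, Tnfaip3, Tnip1 and Peli1) and 1 lower (Ripk3, a necroptosis kinase, 72.2 ± 12.5 against 146.2 ± 52.2). The authors' adjusted p called 97.4% of all listed regions there, with 44.4% of promoter regions higher and 51.9% lower. Limma called 0 of them, and 0 of 2923 regions (0%) in that table, where an unadjusted p under 0.05 was reached by 1876 and voom called 0. That count of 0 depended on the scaling and on 1 library, since limma called 414 regions after scaling to the listed regions, 1729 after scaling to regions near a start site and 2563 without WT library c. At 11 weeks 7 were higher and rose (Nfkbia, Nfkbie, Tnfaip3, Tnip1, Ikbke, Map3k14 and Myd88), among them the non-canonical pathway kinase Map3k14 that cIAP proteins degrade, and Tab1, a partner of the kinase TAK1, fell (84.1 ± 5.1 against 131.4 ± 10.9).

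With TNF 8 of the 55 were higher (Nfkbia, Nfkbie, Tnfaip3, Tnip1, Cyld, Nod1, Peli1 and Tab1), of which all but Tab1 rose by limma. Nfkbia, the gene of the inhibitor IkB-alpha, held 856.5 ± 100.1 normalized reads in treated against 453.4 ± 12.1 in untreated cells, and Tnfaip3, which encodes the inhibitor A20, 908.4 ± 137.4 against 495.7 ± 45.9. Tab1 had regions in both directions, and its lower region (98.7 ± 30.4 against 196.7 ± 65.1) had overlapping groups and fell by limma (adjusted p = 0.0463). Sharpin was called lower by the authors (135.5 ± 9.8 against 185.9 ± 30.4) and turned to a log2 change of 0.06 with scaling to the listed regions. The median log2 change over the listed promoter regions of these genes was 0.37 at 3 weeks, 0.54 at 11 weeks and 0.45 with TNF, beside 0.44, 0.66 and 0.48 over the members. The 8 week and TNF comparisons share their 3 untreated WT libraries. No member had a promoter region in all 3 Tg197 tables, so no gene was ranked by likeness to a member across ages.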

How the data were processed

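H3K4me3 ChIP-seq was measured in 21 libraries (7 groups of 3) and 1 input library, and groups were taken from the sample titles. Per the submitters' processing notes the build was mm9, and BWA, TopHat, Cufflinks, TopHat2 and Cuffdiff are listed without versions or roles. No source used here names the region caller.

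Per the file headers, each of the 4 deposited tables holds 3 normalized counts for each group in 1 cell, made by the authors. The signal columns are deposited averages, each equal to the mean of its 3 counts. The deposited enrichment columns were read as a ratio, and what they are relative to is not given. The authors' fold columns are log2 of treatment over control, and the deposited p-value columns hold the authors' p and adjusted p for the region and its best window. The tables name their groups treatment and control. In 54 regions with the same coordinates in the Tg197 and TNF tables of 8 weeks, all 162 control values gave the same reads, so control was taken to be WT. At 3 and 11 weeks this rests on the same column names. All values were whole multiples of 1 step per library within 0.02 normalized reads (100.0%), which gave the reads.

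Each table was tested with limma (version 3.58.1, R 4.3.3) on the log2 scale with a pseudocount of 0.5, with a variance trend and Benjamini-Hochberg adjustment over all listed regions. The fit was run on simulated regions that had not been selected on a best window, so that run does not bear on calls among the selected, listed regions. The values were normalized, so no count model was the main test. On the recovered reads voom called 12774 regions in the 3 week table, 6401 in the 11 week table, 1984 in the TNF table and 0 in the 8 week table. Other pseudocounts, a filter, 2 scalings, a stricter threshold and leaving out each library were the alternatives. Promoter means the classes within 250 bp, 1 kb or 3 kb of a start. The members and lists were chosen with earlier results of these data known. All 10 members are named, and of the other pathway genes at most 3 per direction and table, those with the largest authors' log2 change, carry values.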

Additional observations from a re-analysis of the deposited data

Results flagged for a closer look

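Tnfaip2 moved in opposite directions at 2 ages in the comparison of Tg197 with WT cells. At 3 weeks its upstream region had a log2 change of -0.61, with all 3 Tg197 libraries below all 3 WT libraries, and at 11 weeks its region downstream of the start had 0.34, with all 3 above. The 2 regions do not overlap, and the difference between ages was not tested. With scaling to the listed regions the 3 week value was 0.05.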

How the results depend on the processing

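Of 209 single values (19 regions under 11 alternatives each), 163 kept their direction and their side of the limma threshold, 40 no longer passed it, 3 newly passed it and 3 turned direction. Those that turned did so with scaling to the listed regions, namely Rela (0.07) and Tnfaip2 (0.05) at 3 weeks and Rela with TNF (0.02), and the shift is the scaling's own. The number of members past limma at 3 weeks was 5. It was 3 when libraries were scaled to the listed regions, all of them risen, where 946 of 13603 regions of the table passed. It was 2 when scaled to regions near a start site, both fallen, where 12241 regions of the table passed. No member call thus held under both scalings. Leaving out 1 library gave 0 to 6 at 3 weeks and 0 to 7 with TNF, where 6 passed with all libraries. In the whole tables it gave 0 to 13397 and 0 to 2770 regions. Where the count was 0, no listed region of the whole table passed. At 11 weeks the number of members past limma was 6 whichever library was left out and 5 under either scaling. Of the 6593 listed regions of that table, 6139 to 6276 passed with 1 library left out. With scaling to the listed regions 2759 passed, and with scaling to regions near a start site 6007. A pseudocount of 5, voom and a filter at a mean of 50 changed no count of members, and the filter removed no region. Under an authors' adjusted p of 0.001 the members called were 6 of 6 at 3 weeks, 5 of 6 at 11 weeks and 6 of 7 with TNF. Of all listed regions that threshold called 11693 of 13603, 3676 of 6593 and 1324 of 3082. At 8 weeks there was no member to recompute. No paired analysis was possible because the 3 values of a group carry no replicate numbers. The fewest reads in a member region were 55, in a WT library at Tank at 3 weeks, and the part of depth in the spread was not tested.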

Other observations

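Around the 10 genes, 10 further regions were listed within 10 kb under no gene name or another one, 9 lower and 1 higher. All 6 of those listed at 3 weeks were lower in Tg197, near Rela, Tnfaip2, Tank and Nfkb2, the direction of most listed regions. At 11 weeks 2 regions in the body of Sipa1, a neighbour of Rela, fell by 0.47 and 0.78 on the log2 scale (limma), beside the fall of 0.55 in the Rela gene body. The only higher one lay 2507 bp upstream of Nfkb2 at 11 weeks (chr19:46376601-46377600), with 175, 144 and 102 normalized reads in Tg197 and 100.4, 87.2 and 102 in WT. Its groups overlapped slightly, and its log2 change was 0.51 ± 0.19 (limma adjusted p = 0.0196). Nfkb2 itself had no listed region at that age. At 8 weeks a region 5073 bp from Tnfaip2 was lower (56.2 ± 13.9 against 134.0 ± 41.0 normalized reads, limma adjusted p = 0.0725).

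The region of Birc2 lay upstream of the start given in the files. In RefSeq on GRCm38.p6 the 2 starts of Birc2 are 36364 and 36113 bp from that of Birc3, against 37915 bp in the files on mm9. Measured from Birc3, they lie 1551 and 1802 bp upstream of the start used in the files, within the 1147 to 2146 bp that the region spans, if the distance between the genes is the same on both builds, which was not checked.

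The authors' enrichment values and their normalized reads gave different directions in part of the data. Of the regions that the authors called lower with TNF, 1175 of 2228 had a higher enrichment in treated than in untreated cells in the authors' deposited table, against 402 of 12173 at 3 weeks, 244 of 2257 at 8 weeks and 9 of 4417 at 11 weeks. The log2 ratio of enrichments exceeded the log2 change in reads by a median of 1.04 with TNF, 0.48 at 3 weeks, 0.61 at 8 weeks and 0.07 at 11 weeks. Among the members, only the Rela start with TNF changed direction between the measures, while Tank was higher in both at 3 and 11 weeks, with deposited enrichments of 3.77 against 1.55 and 2.03 against 1.00.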
